A study of Mus musculus with 12 samples.

Results

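Base excision repair of oxidised DNA is described here through 10 genes of the pathway, Ogg1, Mutyh, Neil1, Neil2, Neil3, Nthl1, Apex1, Xrcc1, Parp1 and Ung. The 10 were chosen by name and matched to the gene symbols of the expression table, which lists 45792 genes, and the rule used no measured value. RNA was sequenced from 12 cultures of mouse neural stem cells (NSCs), 4 in each of 3 groups. WT NSCs were untreated, vehicle-treated Ncf1-/- NSCs lacked Ncf1, a cytosolic subunit that activates NADPH oxidases, and Igfbp2-treated Ncf1-/- NSCs carried that deletion and received recombinant mouse Igfbp2, an insulin-like growth factor binding protein. The labels give the dose as 100 ng/ml, whereas the study's methods state a lower one, and they describe the vehicle-treated libraries as having had no treatment. Treatment began 48 h after plating and RNA was taken 48 h later. By the study's methods, the cells came from the forebrain of newborn pups, each pup's cells were grown apart and used at the second passage, and the Ncf1-/- mice had been backcrossed to C57BL/6J. The deletion is in every cell of these animals, so an effect within the cultured cells and one on the brain they came from cannot be told apart.

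Reactive oxygen species change DNA bases, and 8-oxoguanine, an oxidised guanine that pairs with adenine, is the best known product. In base excision repair, a DNA glycosylase cuts the damaged base from its sugar, an endonuclease opens the strand at the empty site, and a polymerase and a ligase fill and seal the gap, with scaffold and break-sensing proteins holding the steps together. Non-dividing and dividing neural cells both depend on the pathway, since their high oxygen use produces oxidised bases in nuclear and mitochondrial DNA. The contrast of Ncf1-/- with WT NSCs asks whether these genes differ where an oxidase subunit is missing, and that of the treatments whether added Igfbp2 moves them.

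The genes lie at separate places in the mouse genome (build GRCm38). The glycosylase genes are Ogg1 (ENSMUSG00000030271, chr6:113326972-113335068, forward strand), Mutyh (ENSMUSG00000028687, chr4:116807723-116819440, forward), Neil1 (ENSMUSG00000032298, chr9:57142800-57148305, reverse), Neil2 (ENSMUSG00000035121, chr14:63182443-63193856, reverse), Neil3 (ENSMUSG00000039396, chr8:53586867-53639065, reverse), Nthl1 (ENSMUSG00000041429, chr17:24632680-24638837, forward) and Ung (ENSMUSG00000029591, chr5:114130386-114139323, forward). Apex1 (ENSMUSG00000035960) is at chr14:50924968-50927139 on the forward strand, Xrcc1 (ENSMUSG00000051768) at chr7:24546289-24573440 on the forward strand, and Parp1 (ENSMUSG00000026496) at chr1:180568924-180601254 on the forward strand. Of the exon bases of Apex1, 61.7% are shared with Pip4p1 (named Tmem55b in the files) on the opposite strand, and of those of Ogg1, 10.6% are shared with Camk1 on the opposite strand. Whether reads were counted by strand is not given in the sources used here, so reads in those overlaps cannot be told apart.

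Promoters were available for 9 of the 10 genes in the RefSeq table (GRCm38.p6), from 250 bases before to 50 bases after the start of transcription. Letters of 4 kinds were searched on both strands, and a match is a description of the sequence only. They were the E2F type (TTTCCCGC, TTTGGCGC, TTTCGCGC or TTTGCCGC), which 2.26% of the 32851 promoters in the table hold, the cell cycle homology region (TTTGAA, 17.9%), the NF-Y type (CCAAT, 37.4%) and an antioxidant response type (TGACNNNGC, 12.4%). The E2F letters occurred in 1 of the 9 genes, Nthl1, and the antioxidant response letters in 1, Neil1. The NF-Y letters occurred in Ogg1, Mutyh, Nthl1, Apex1 and Xrcc1, and the cell cycle letters in none. The promoters of Nthl1 and Neil1 are shown because they hold the rarer letters, and those of Neil3 and Ung because the expression results turn on these genes. Each is written 5′ to 3′ on the strand of its gene, at chr17:24632432-24632731 (Nthl1), chr9:57148256-57148555 (Neil1, reverse strand), chr8:53639016-53639315 (Neil3, reverse strand) and chr5:114130185-114130484 (Ung), with matched letters of any of the 4 kinds in capitals.
Nthl1: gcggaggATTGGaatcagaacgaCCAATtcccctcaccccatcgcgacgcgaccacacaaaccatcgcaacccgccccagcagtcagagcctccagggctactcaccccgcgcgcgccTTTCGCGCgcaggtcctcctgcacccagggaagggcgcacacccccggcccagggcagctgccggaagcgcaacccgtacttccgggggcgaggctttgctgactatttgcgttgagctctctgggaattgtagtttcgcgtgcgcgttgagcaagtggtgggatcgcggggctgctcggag
Neil1: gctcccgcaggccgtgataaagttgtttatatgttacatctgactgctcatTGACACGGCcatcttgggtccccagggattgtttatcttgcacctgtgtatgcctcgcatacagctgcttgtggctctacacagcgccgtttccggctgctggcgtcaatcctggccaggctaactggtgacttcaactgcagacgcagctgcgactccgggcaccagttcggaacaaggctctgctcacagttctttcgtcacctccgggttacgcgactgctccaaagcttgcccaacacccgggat
Neil3: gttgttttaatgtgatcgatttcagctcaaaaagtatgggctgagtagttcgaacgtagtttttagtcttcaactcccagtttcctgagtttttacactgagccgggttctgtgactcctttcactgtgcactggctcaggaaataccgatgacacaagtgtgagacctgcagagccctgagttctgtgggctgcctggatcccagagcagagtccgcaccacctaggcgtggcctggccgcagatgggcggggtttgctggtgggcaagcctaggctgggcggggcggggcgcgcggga
Ung: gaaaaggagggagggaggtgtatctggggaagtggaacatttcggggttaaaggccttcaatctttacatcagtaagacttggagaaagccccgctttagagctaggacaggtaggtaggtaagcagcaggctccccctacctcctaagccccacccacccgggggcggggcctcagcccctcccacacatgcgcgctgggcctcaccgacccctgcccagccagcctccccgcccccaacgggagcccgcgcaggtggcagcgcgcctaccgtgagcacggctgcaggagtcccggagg
In Nthl1, TTTCGCGC began 132 bases before the start site and the NF-Y letters lay on both strands farther upstream. In Neil1, TGACACGGC began 199 bases before the start site. The windows of Neil3, Ung and Parp1 held none of the letters searched.

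Library totals ran from 18201622 to 34086554 counts, with medians of 20985366 in WT, 20932987 in vehicle-treated and 20813822 in Igfbp2-treated libraries. Ncf1 had between 1 and 7 counts in each library and did not pass the filter on low counts, so the genotype labels could not be checked by it. Levels summed over marker lists set the WT libraries apart from one another. Oligodendrocyte markers summed to between 2093 and 9943 CPM in WT, 669.5 to 748.6 in vehicle-treated and 786.5 to 825.7 in Igfbp2-treated libraries, and among them Mbp, a myelin protein, had a mean of 2448 CPM in WT and 2.78 in vehicle-treated libraries. Of the 8 oligodendrocyte genes 7 were called lower and 1, Olig2, higher in the vehicle-treated libraries against WT, where 28.2% of all genes tested were called lower and 28.9% higher. The 8 neural stem cell markers summed to 3314 to 9151 CPM in WT and 8445 to 9194 in the Ncf1-/- libraries, while Nes, the intermediate filament of these cells, was at 118 to 446.6 CPM in WT and 696.4 to 1294 in the Ncf1-/- libraries. Against WT, the vehicle-treated Ncf1-/- libraries had 2 of these 8 genes called higher, Nes among them, and 5 called lower, beside the same shares of all genes, with a median log2 fold change of -0.46. Astrocyte markers summed to 5317 to 10660 CPM in WT and 1951 to 2946 in the Ncf1-/- libraries, neuron markers to 596 to 768.9 in WT, 482.5 to 546.8 in vehicle-treated and 432.2 to 459.3 in Igfbp2-treated libraries, mesenchymal markers to 9.87 to 24.2 in WT, 10.8 to 13.9 in vehicle-treated and 23.4 to 26.7 in Igfbp2-treated libraries, and microglial markers to under 1.5 in every library, with the defining marker C1qa at 0 in every library. Of the 5 tested mesenchymal genes 4 were called higher and 1, Pdgfrb, lower in the vehicle-treated libraries against WT, although the sums overlapped. Pdgfrb made up most of the WT sum, with a mean of 13.5 CPM. The 4 Y-linked genes summed to 105.3 to 115.5 CPM in the vehicle-treated and 7.79 to 9.18 in the Igfbp2-treated libraries, to 106.8 to 118.3 in WT replicates 1 to 3 and to 6.46 in WT replicate 4. A second sample sheet in the study's supplementary code gives WT replicate 4 another treatment. The main counts of called repair genes and cell cycle genes against WT are therefore also given without it.

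Levels of different genes were compared in TPM, a share of each library's transcripts that takes account of transcript length. In WT, Parp1, the sensor of DNA strand breaks, had the highest level at 60.7 ± 8.45 TPM (SD, n = 4), followed by Apex1 at 29.8 ± 4.89, Xrcc1 at 10.9 ± 0.663 and Ogg1 at 5.05 ± 0.637, and the ranges over libraries of these 4 genes did not overlap. Nthl1 (2.73 ± 1.16 TPM) and Neil1 (2.03 ± 0.818) overlapped with each other, and so did Neil1 with Ung (1.39 ± 0.171), and Neil3 (0.950 ± 0.130) with Mutyh (0.795 ± 0.165). Neil2 came last at 0.115 ± 0.0843 TPM, below the range of Mutyh. In vehicle-treated Ncf1-/- libraries Apex1 (39.4 ± 3.86 TPM) and Parp1 (36.6 ± 4.90) overlapped at the top. Ung, at 5.31 ± 0.854 TPM there, had a mean above those of Nthl1 and Neil1, whereas in WT its mean was below both. The ranges of Ung and Nthl1 overlapped in WT (1.25 to 1.64 against 1.48 to 3.83 TPM) and in vehicle-treated libraries (4.65 to 6.51 against 3.66 to 4.76). Those of Ung and Neil1 overlapped in WT but not in vehicle-treated libraries. In Igfbp2-treated libraries Parp1 (27.0 ± 6.44 TPM) and Apex1 (24.3 ± 5.46) overlapped again, and Neil2 remained last at 0.0850 ± 0.0311.

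**Figure D1:**
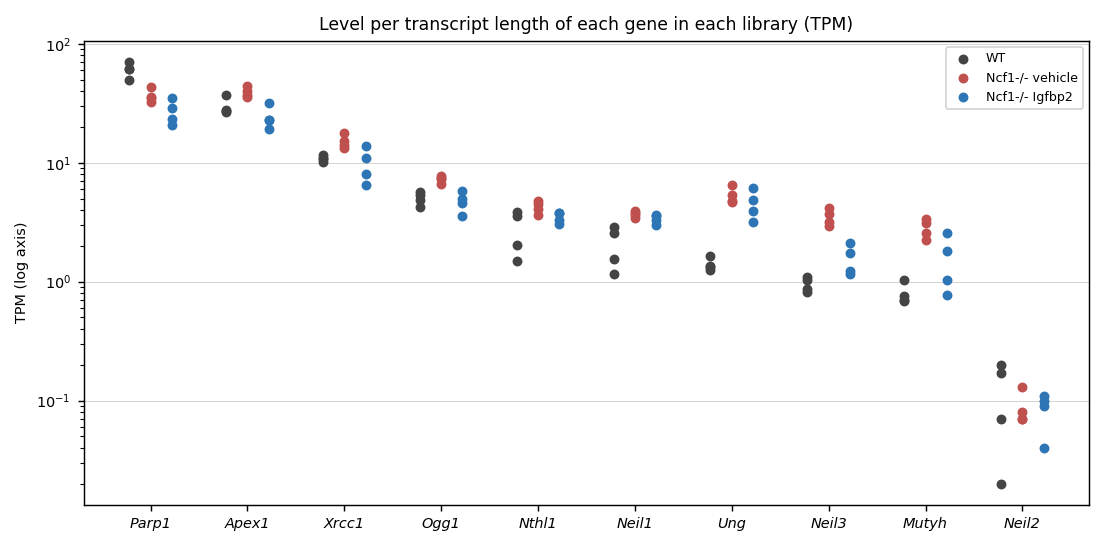
Level of each gene in each library in TPM, on a log axis, with 1 point per library and genes in the order of their WT means. Parp1 stands alone at the top in WT and overlaps with Apex1 in both Ncf1-/- groups, and Neil2 is at or below 0.2 TPM in every library.

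Between groups, genes were compared by CPM, their counts relative to the library total after scaling by edgeR's trimmed mean of M values (TMM). Neil2, a glycosylase that acts on bubbles and single-stranded DNA, had 1 to 15 counts in a library and did not pass the filter, so it was left out of the main test. Its CPM ran from 0.0540 to 0.430 in WT, 0.149 to 0.309 in vehicle-treated and 0.120 to 0.442 in Igfbp2-treated libraries, and the groups overlapped. With every gene kept (27697 genes) its log2 fold change was -0.41 (SE 0.545, adjusted p = 0.615) between vehicle-treated Ncf1-/- and WT and 0.55 (SE 0.556, adjusted p = 0.557) between the treatments, neither past the test. The other 9 genes were among the 15706 tested.

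In vehicle-treated Ncf1-/- against WT NSCs, 8 of the 9 tested genes were higher and 1, Parp1, was lower (edgeR quasi-likelihood test, Benjamini-Hochberg adjusted p under 0.05). Of all genes tested, 57.2% were called in this comparison, 28.9% as higher and 28.2% as lower. In none of the 9 did the libraries of the groups overlap, whereas 26.1% of all genes tested were higher and 25% lower without overlap. The median log2 fold change was 0.62 over the 9 genes and 0.02 over all genes tested. The largest rises were those of Ung, Mutyh and Neil3, and the smallest that of Apex1. Without WT replicate 4 there were again 8 genes called higher and 1 lower.

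**Figure D2:**
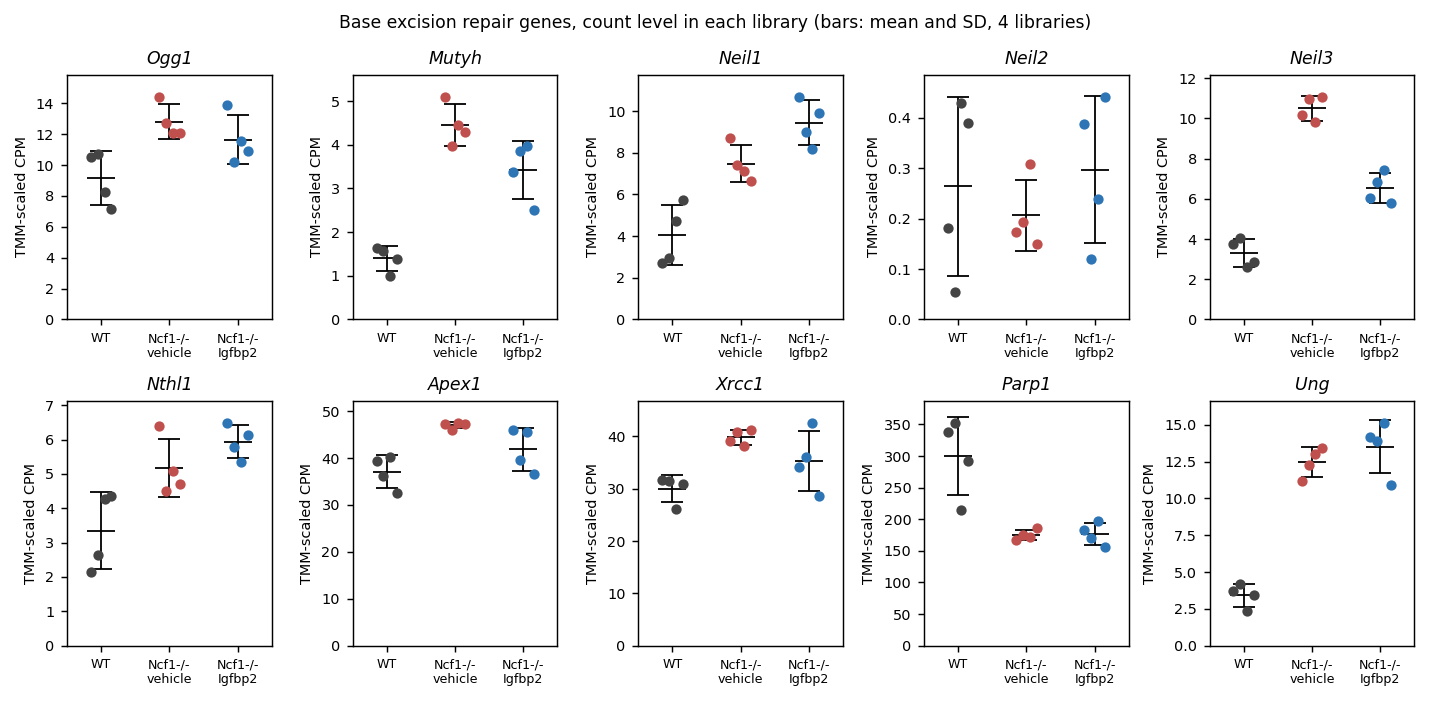
CPM of each of the 10 genes in each library, with the mean and SD of the 4 libraries of a group as bars. Ung, Mutyh and Neil3 are well above WT in both Ncf1-/- groups, Parp1 is below WT in both, and the Igfbp2-treated libraries of Neil3 overlap with neither of the other groups.

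Ogg1 and Mutyh encode the glycosylases that deal with 8-oxoguanine, the first by removing it where it pairs with cytosine and the second by removing an adenine placed opposite it. Ogg1 was at 10.6, 10.7, 8.26 and 7.18 CPM in WT replicates 1 to 4 and at 14.4, 12.7, 12.1 and 12.1 in the vehicle-treated replicates. It rose by a log2 fold change of 0.48 (SE 0.141, adjusted p = 0.0099). Its neighbour on the other strand, Camk1, had a log2 fold change of 0.07 (adjusted p = 0.61).

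Mutyh was at 1.64, 1.57, 1.004 and 1.39 CPM in WT and at 5.10, 3.97, 4.46 and 4.29 in the vehicle-treated libraries, so that the lowest Ncf1-/- library was above the highest WT library. Its log2 fold change was 1.69 (SE 0.200, adjusted p = 1.23e-05), from 25 to 36 counts per library in WT and 82 to 117 in the vehicle-treated group.

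Neil1, Neil3 and Nthl1 encode glycosylases of the endonuclease VIII and III families, which also cut the strand and act mainly on oxidised pyrimidines and ring-opened purines. Neil1 was at 2.73, 2.97, 4.73 and 5.74 CPM in WT and at 8.71, 7.40, 7.11 and 6.64 in the vehicle-treated libraries, a log2 fold change of 0.88 (SE 0.208, adjusted p = 0.00267). Nthl1 was at 2.14, 2.65, 4.27 and 4.34 CPM in WT and at 6.40, 4.50, 5.08 and 4.70 in the vehicle-treated libraries, a log2 fold change of 0.62 (SE 0.213, adjusted p = 0.0245). In both genes WT replicates 1 and 2 were lower than WT replicates 3 and 4, and the oligodendrocyte markers summed to 9669 and 9943 CPM in the first pair and to 2093 and 5815 in the second. Astrocyte markers summed to 5317 and 5806 CPM in the first pair and to 10660 and 8853 in the second. Neural stem cell markers summed to 3314 and 3519 CPM and to 9151 and 5217. Neuron markers and genes of the cell cycle summed higher in the first pair. The part of cell type and of the cell cycle in these levels was not tested. The call of Nthl1 was lost without vehicle-treated replicate 1 (log2 fold change 0.50, adjusted p = 0.081), without WT replicate 1 (0.45, adjusted p = 0.0606) and without WT replicate 2 (0.52, adjusted p = 0.0667).

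Neil3, a glycosylase of dividing cells that also unhooks DNA interstrand crosslinks, was at 3.78, 4.05, 2.61 and 2.84 CPM in WT and at 10.2, 10.98, 9.80 and 11.1 in the vehicle-treated libraries. Its log2 fold change was 1.67 (SE 0.150, adjusted p = 1.36e-06), with 51 to 91 counts per library in WT and 222 to 297 in the vehicle-treated group. Its estimated count was whole in 0 of the 12 libraries, so some of its reads had been divided with other genes.

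Ung encodes the uracil-DNA glycosylase, which removes uracil that arises from cytosine or is built in at replication. Its level was 3.73, 4.16, 2.35 and 3.45 CPM in WT and 11.2, 12.3, 12.98 and 13.4 in the vehicle-treated libraries. The log2 fold change of 1.88 (SE 0.165, adjusted p = 1.13e-06) was the largest among the 9 genes. Ung is the 1 gene of the 10 that is also in Seurat's S phase list.

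Apex1 encodes the main endonuclease that opens the strand at the empty site. It was at 39.4, 36.2, 40.2 and 32.6 CPM in WT and within 46.0 to 47.5 in the 4 vehicle-treated libraries, a log2 fold change of 0.34 (SE 0.0890, adjusted p = 0.00541). Tmem55b, which shares most of its exon bases, had a log2 fold change of 0.10 (adjusted p = 0.326) in this comparison. The estimated count of Apex1, like that of Neil3, was whole in 0 of the 12 libraries. Those of Neil1 and Parp1 were each whole in 6. Xrcc1, the scaffold that gathers the ligase and end-processing enzymes at the gap, was at 31.6, 31.5, 26.2 and 30.8 CPM in WT and at 39.2, 40.9, 38.2 and 41.2 in the vehicle-treated libraries, a log2 fold change of 0.41 (SE 0.108, adjusted p = 0.00538). On TPM with limma, the calls of Apex1 and Xrcc1 were lost (adjusted p = 0.0546 and 0.0744).

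Parp1, which binds single-strand breaks and makes the poly(ADP-ribose) that recruits Xrcc1, moved the other way. It was at 338.0, 352.1, 215.1 and 292.1 CPM in WT and at 167.6, 174.8, 171.5 and 185.6 in the vehicle-treated libraries, a fall of 0.77 on the log2 scale (edgeR log2 fold change -0.77, SE 0.134, adjusted p = 2.7e-04). WT replicate 3, the lowest WT library, was still above the highest vehicle-treated library. Over the 4 WT libraries Parp1 had the same order as the summed oligodendrocyte markers (9669, 9943, 2093 and 5815 CPM). Neuron markers (724, 768.9, 596 and 614.8 CPM), mesenchymal markers (16.8, 24.2, 9.87 and 11.4) and Seurat's G2/M genes (3052, 3121, 2170 and 2320) had this order too. The oligodendrocyte and neuron sums were lower in the Ncf1-/- libraries than in WT, and the G2/M sum was higher. The part of these genes in the level of Parp1 was not tested.

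Genes of the cell cycle moved in the same comparison. Of 43 tested S phase genes of Seurat's list 40 were called higher, where 28.9% of all genes tested were, with a summed level of 746.7 to 1131 CPM in WT and 2192 to 2758 in vehicle-treated libraries. Of 52 tested G2/M genes 48 were called higher, with 2170 to 3121 CPM in WT and 5859 to 6931 in vehicle-treated libraries. Without WT replicate 4 there were again 40 and 48. The part of these levels and of the marker lists above in the differences of the repair genes was not tested. In these bulk libraries, fewer cells of a type and less RNA per cell cannot be told apart.

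Between Igfbp2-treated and vehicle-treated Ncf1-/- NSCs, 1 of the 9 tested genes was called, Neil3, which was lower, and 0 were called higher. Of all genes tested 25% were called, 14.2% as higher and 10.7% as lower. Neil3 was at 6.04, 6.85, 7.41 and 5.79 CPM in the Igfbp2-treated libraries against 9.80 to 11.1 in the vehicle-treated ones, and no library overlapped. It fell by 0.69 on the log2 scale (edgeR log2 fold change -0.69, SE 0.144, adjusted p = 0.0057). The call of Neil3 held in each of 16 alternatives, with log2 fold changes from -1.17 to -0.63 and adjusted p from 0.000173 to 0.0218. The Igfbp2-treated level stayed above WT, with a log2 fold change of 0.98 (SE 0.152, adjusted p = 1.04e-04) and no overlap. This difference from WT was called in 14 of 15 alternatives. The call was lost with the study's Tukey test on TPM (0.72, adjusted p = 0.363), and limma on log2(TPM + 1) gave 0.38. Relative to the median of all genes, these 2 values were 1.15 and 0.63.

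The Y-linked genes gave the same split of the treatments, 7.79 to 9.18 CPM against 105.3 to 115.5, so that the treatment and what goes with Y-linked expression cannot be told apart in this comparison. They also set the Igfbp2-treated libraries apart from WT replicates 1 to 3 (106.8 to 118.3 CPM). Other marker sums also separated the treatments without overlap. The mesenchymal sum was higher with Igfbp2 (23.4 to 26.7 against 10.8 to 13.9 CPM, 3 of 5 genes called higher), the oligodendrocyte sum was higher (786.5 to 825.7 against 669.5 to 748.6, 0 of 8 called) and the neuron sum was lower (432.2 to 459.3 against 482.5 to 546.8, 2 of 6 called lower). Their part in the level of Neil3 was not tested. The S phase genes summed to 1853 to 2501 CPM in the Igfbp2-treated and 2192 to 2758 in the vehicle-treated libraries, with 0 of 43 called higher and 4 lower, where 14.2% and 10.7% of all genes tested were. The G2/M genes summed to 5566 to 6205 and 5859 to 6931 CPM, with 0 of 52 called higher and 2 lower. By sign alone, 35 of the 43 and 41 of the 52 were lower with Igfbp2, against 7166 of all 15706 genes tested. Their median log2 fold changes were -0.14 and -0.13, against 0.04 over all genes tested. The part of the cell cycle genes in the level of Neil3 was not tested either. Over the 12 libraries the genes whose log2 CPM followed that of Neil3 most closely, among 15697, were Fanca, a subunit of the Fanconi anaemia core complex (Pearson r = 0.99), and Cdc7, the kinase that fires replication origins (r = 0.99). These are descriptions across libraries that share the 3 groups.

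The other 8 tested genes had log2 fold changes between the treatments from -0.38 to 0.34, and none passed the test. Mutyh was at 3.38, 3.85, 3.97 and 2.504 CPM after Igfbp2, a log2 fold change of -0.38 (SE 0.187, adjusted p = 0.152). Neil1 was at 10.7, 9.02, 8.18 and 9.92 CPM after Igfbp2, a log2 fold change of 0.34 (SE 0.201, adjusted p = 0.227). Both overlapped with the vehicle-treated libraries, in Mutyh only at the edge (3.969 against 3.967 CPM).

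Apex1 was at 45.9, 39.5, 45.6 and 36.7 CPM after Igfbp2, just under the lowest vehicle-treated library (46.0), and did not pass the test (log2 fold change -0.16, SE 0.0890, adjusted p = 0.192). Of all genes tested, 14.7% were lower and 19.3% higher without overlap in this comparison. Tmem55b, on the other strand of Apex1, was called lower (log2 fold change -0.41, adjusted p = 0.00523). The values for Ogg1 (-0.14, adjusted p = 0.496), Xrcc1 (-0.17, adjusted p = 0.248), Nthl1 (0.20, adjusted p = 0.51), Ung (0.12, adjusted p = 0.602) and Parp1 (0.02, adjusted p = 0.941) did not pass either, and their libraries overlapped.

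**Figure D3:**
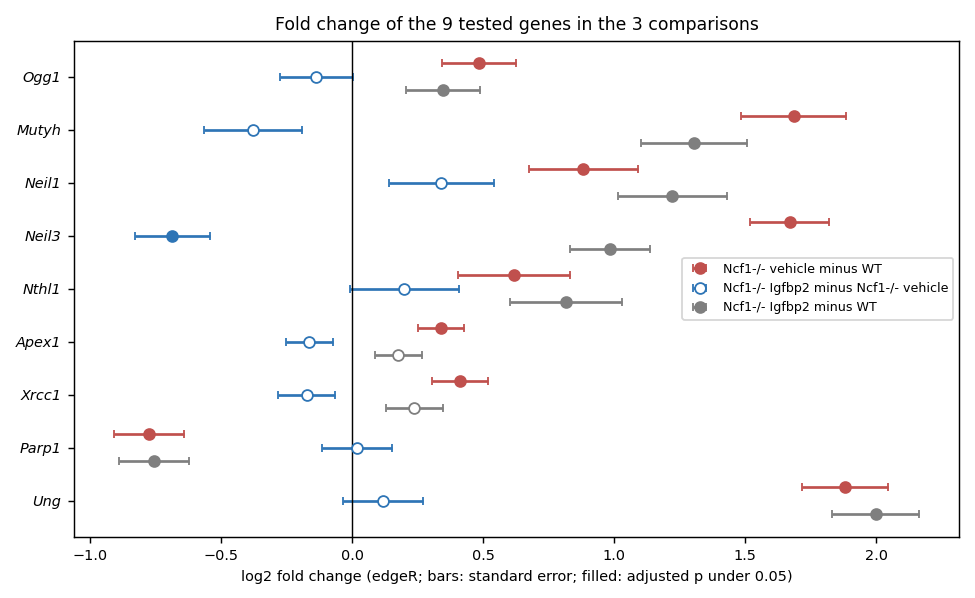
Log2 fold change of the 9 tested genes in the 3 comparisons, with standard errors as bars and filled symbols for an adjusted p under 0.05. Parp1 lies left of 0 in both comparisons with WT, and Neil3 has the single filled symbol between the treatments.

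The direction of several of these values depended on the scaling. Without TMM factors the median of all genes tested moved from 0.04 to -0.23 between the treatments, and on log2(TPM + 1) to -0.30. With library totals Ogg1, Mutyh, Apex1 and Xrcc1 were called lower beside Neil3, with log2 fold changes of -0.41, -0.64, -0.43 and -0.44 before this shift is taken off. Relative to that median, Neil3 was at -0.72 with TMM factors, -0.72 with library totals and -0.53 on log2(TPM + 1). Ung was at 0.08 in each of these 3 scalings, Parp1 at -0.02, -0.02 and -0.15, Nthl1 at 0.16, 0.16 and 0.07, and Neil1 at 0.30, 0.30 and 0.19, so that relative to all genes these 5 kept their side of 0.

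**Figure D4:**
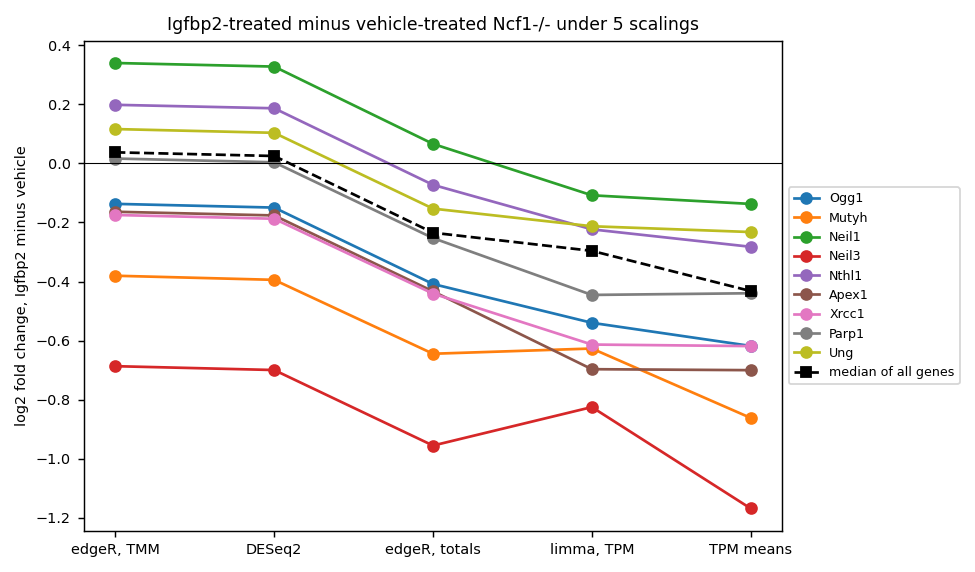
Log2 fold change between Igfbp2-treated and vehicle-treated Ncf1-/- NSCs under 5 scalings, with 1 line per gene and the median of all genes as a dashed line. Neil3 is the lowest line in each scaling, at -0.69 with TMM and -0.96 with library totals, and most lines shift down together with the median.

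Against WT, the Igfbp2-treated libraries had 6 of the 9 tested genes higher and 1, Parp1, lower, where 62.4% of all genes tested were called, 31.6% as higher and 30.8% as lower. The libraries of 5 genes were higher and those of Parp1 lower without overlap, against 27.8% and 26.6% of all genes tested. Without WT replicate 4, 5 genes were called higher and 1 lower. This comparison shares its libraries with the other 2. Y-linked genes summed to 7.79 to 9.18 CPM in the Igfbp2-treated libraries, 106.8 to 118.3 in WT replicates 1 to 3 and 6.46 in replicate 4. All 4 were called lower here. Without WT replicate 4 their split of the groups is complete, so genotype, treatment and what goes with Y-linked expression cannot be told apart there. The part of Y-linked expression in these calls was not tested. Ung had the largest log2 fold change, 1.999 (SE 0.166, adjusted p = 7.02e-07), from 14.2, 13.9, 15.1 and 10.9 CPM after Igfbp2. The log2 fold changes of Mutyh (1.30, adjusted p = 1.08e-04), Neil1 (1.22, adjusted p = 2.25e-04) and Nthl1 (0.82, adjusted p = 0.00488) also passed the test. With the study's Tukey test on TPM, Mutyh (0.96, adjusted p = 0.442), Neil1 (0.73, adjusted p = 0.0601) and Nthl1 (0.35, adjusted p = 0.704) lost the call. Relative to the median of all genes, they were at 1.39, 1.16 and 0.78 there. Nthl1 also lost the call with limma on TPM (0.32, adjusted p = 0.173, or 0.57 relative to the median). Ogg1 passed the main test narrowly (0.35, adjusted p = 0.0479) and was called in 3 of 15 alternatives. It lost the call without WT replicate 4 (0.18, adjusted p = 0.282) and with DESeq2 (0.32, adjusted p = 0.0651), and its adjusted p ran from 0.0271 to 1.0 over the 15. Apex1 (0.17, adjusted p = 0.104) and Xrcc1 (0.24, adjusted p = 0.0732) did not pass. Both passed without Igfbp2-treated replicate 4 (0.23, adjusted p = 0.038, and 0.33, adjusted p = 0.0115). Parp1 was at 182.9, 170.6, 197.4 and 156.7 CPM after Igfbp2, all below the lowest WT library, and fell by 0.76 (SE 0.134, adjusted p = 3e-04). In the test over the 3 groups 9 of the 9 tested genes passed, where 71.6% of all genes tested did.

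The mean length of the transcripts assigned to a gene, weighted by their abundance, is a readout apart from the gene's count. It was constant for Neil2, Nthl1 and Xrcc1, which have 1 transcript each in the files. Neil3 transcripts were shorter in vehicle-treated Ncf1-/- NSCs (2331 to 2493 bases) than in WT (2509 to 2812 bases), with a mean difference of -262.2 bases and no overlap. The exact two-sided permutation test of 4 against 4 gave p = 0.0286, the smallest it can give, and an adjusted p of 0.571 over 20 comparisons. Without WT replicate 4 the difference was -216.5 bases (adjusted p = 0.571). Of the 20 comparisons 6 were of constant lengths, and a single gene at the smallest possible p could not pass the adjustment, so the test says little here. The smallest unadjusted p between the treatments was 0.143, for Neil1 and Ung.

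The other genes of base excision repair were described by the step they serve, as 35 tested genes in 5 lists. Between vehicle-treated Ncf1-/- and WT NSCs 23 were called higher, 2 lower and 10 neither, where 28.9% of all genes tested were called higher and 28.2% lower. Their median log2 fold change was 0.65, and without WT replicate 4 there were again 23 higher and 2 lower. The long-patch list, the replication polymerases, sliding clamp, clamp loader, flap endonuclease and ligase that fill longer gaps, had 15 of 16 genes called higher and a median of 1.34. Its largest rises were those of Pole2 (1.88), Rfc4 (1.73) and Pold1 (1.70), and Pold4 was not called (0.03, adjusted p = 0.921). Of this list 4 genes, Fen1, Pcna, Pold3 and Rfc2, are also in Seurat's S phase list.

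The short-patch list, which seals single-base gaps and broken ends, had 2 of 10 genes called higher, 2 lower and a median of 0.06, where 57.2% of all genes tested were called. Those higher were Hmgb1 (1.12), a chromatin protein that assists the repair, and Parp2 (0.81), the second break sensor. Those lower were Lig3 (-0.41), the ligase that partners Xrcc1, and Aptx (-0.26), which frees blocked 5′ ends. Polb, the polymerase of this route, had a log2 fold change of -0.18 (adjusted p = 0.0698) and is named here after its value was seen.

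The 4 glycosylases for other bases were all called higher, Mpg for alkylated bases (1.46), Mbd4 (0.45) and Tdg (0.40) for thymine opposite guanine, and Smug1 for uracil (0.33). Among enzymes that clear oxidised nucleotides before they enter DNA, Nudt1, which removes 8-oxo-dGTP (1.40), and Nudt5 (0.65) were called higher, and Nudt18 was not called (-0.26, adjusted p = 0.0828). Apex2, the second endonuclease, had a log2 fold change of 0.01 (adjusted p = 0.934).

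Between the treatments, where 14.2% of all genes tested were called higher and 10.7% lower, 2 of the 35 genes were called higher, Pold4 (0.91, adjusted p = 0.014) and Nudt18 (0.56, adjusted p = 0.00694). A further 2 were called lower, Mbd4 (-0.53, adjusted p = 0.0103) and Pole3 (-0.31, adjusted p = 0.0281), and 0 of the 10 short-patch genes were called. Mbd4 was at 8.17 to 10.02 CPM in vehicle-treated, 5.65 to 7.45 in Igfbp2-treated and 5.88 to 7.52 in WT libraries, so that the Igfbp2-treated and WT ranges overlapped. Against WT 25 of the 35 were called higher and 5 lower in the Igfbp2-treated libraries (31.6% and 30.8% of all genes tested), or 22 and 5 without WT replicate 4, with 16 of the 16 long-patch genes higher.

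**Figure D5:**
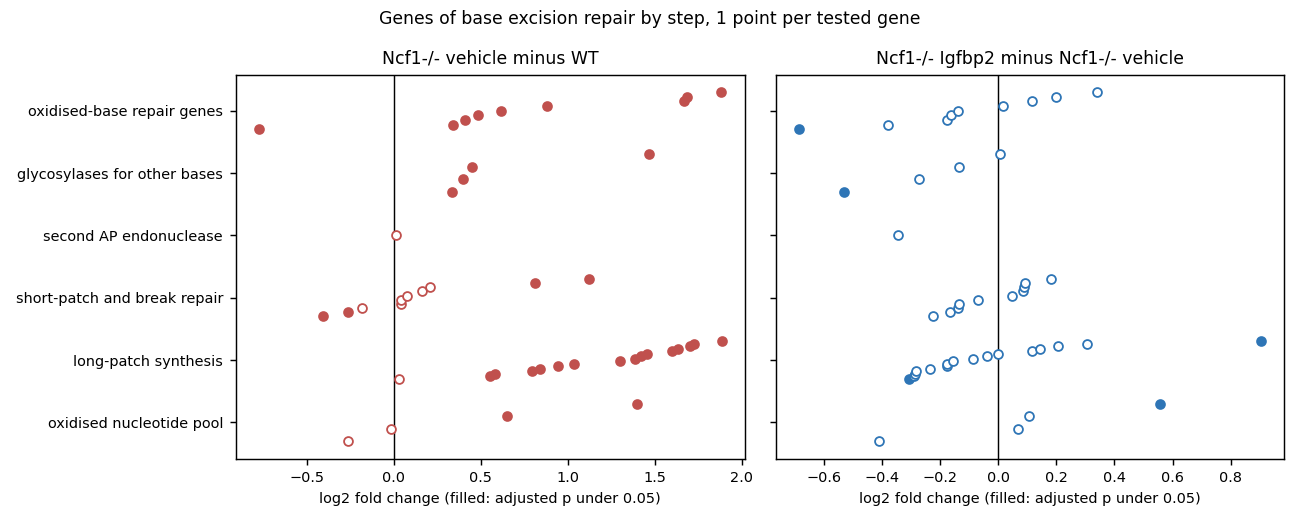
Log2 fold change of each tested gene of base excision repair by step, for vehicle-treated Ncf1-/- minus WT (left) and Igfbp2-treated minus vehicle-treated Ncf1-/- (right), with filled points for an adjusted p under 0.05. Nearly the whole long-patch list, 15 of 16 genes, lies right of 0 as filled points on the left, while on the right 5 genes are filled.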

How the data were processed

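Total RNA of 12 mouse NSC cultures, depleted of ribosomal RNA, was sequenced, with 1 library per culture and 4 per group. The submitters' processing notes name Bowtie2, RSEM and the build GRCm38, and the annotation release is not given in the sources used here. The authors deposited, per gene and library, RSEM's expected count, not normalized, and TPM, which sums to a fixed total per library. A merged table deposited by the authors holds a score that equals TPM multiplied by the number of transcripts for 100% of 257083 values above 0 (within 1%), and it was used only to match symbols. The authors' FPKM values were not used. Of the expected counts 15.9% were not whole.

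Counts were rounded and fitted with edgeR 4.0.16 in R 4.3.3 (filterByExpr, TMM factors, quasi-likelihood test, 1 mean per group, no covariate, 12 libraries), with Benjamini-Hochberg adjustment over the 15706 genes tested, which held 99.9% of counts. With the depth and the spread between cultures together, log2 fold changes of Ncf1-/- against WT had standard errors with a median of 0.141. Cultures within a group came from different pups by the study's methods, so p-values measure the spread between these cultures. Alternatives were DESeq2 1.42.0, library totals, every gene kept, only genes averaging 5 CPM or more, the 2 groups compared alone, limma 3.58.1 on log2(TPM + 1), the study's ANOVA with Tukey's test on TPM, a replicate block and each library left out. The cell cycle lists are those of Seurat 5.3.0, coordinates are from GENCODE and promoters from RefSeq, both on GRCm38.

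By the study's methods, vehicle-treated and Igfbp2-treated Ncf1-/- cultures were paired by animal. The labels do not give the pairs, so libraries were numbered within each treatment in label order, and the block rests on this numbering. Deviations from the group means of same-numbered libraries had correlations of -0.05 to 0.00 over 4 pairs, against -0.18 to 0.19 over 12 pairs of different numbers, and Y-linked levels differed within every pair.

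Genes named are the 10, the other repair genes called with the largest changes in each list (up to 3 each way against WT, up to 2 between the treatments), the 2 genes most like a member called in both main comparisons, Ncf1, Mbp, Nes and overlapping neighbours, and any other gene was named after its values were seen. The rule for the 10 uses no measured value, but the 10 and the lists were chosen with earlier results of these data known. Some results of the gene lists are not reported here.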

Additional observations from a re-analysis of the deposited data

Results flagged for a closer look

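Of 30 sets of 4 libraries (10 genes in 3 groups), 1 held a library far from the others. Xrcc1 in WT replicate 3 was at 26.2 CPM, while the other WT libraries were between 30.8 and 31.6, and the gap took up 0.858 of the whole range. Chance marks about 1 in 20 such sets.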

How the results depend on the processing

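Between Ncf1-/- and WT, Ogg1, Mutyh, Neil1, Neil3, Parp1 and Ung kept their direction and their call in each alternative run. In this comparison 0 of 133 single-gene values reversed and 8 lost the call, those of Nthl1, Apex1 and Xrcc1. The study's own test gave 4329 genes and 5 of the 9 higher. Leaving out 1 library gave 7 to 8 genes higher.

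Between the treatments, 3923 genes were called, against 5906 with library totals (648 higher, 5258 lower), 6354 with limma on TPM (200 higher, 6154 lower) and 2149 with the study's test (64 higher, 2085 lower). Leaving out 1 library gave 2272 to 3822 genes, with 2325 without vehicle-treated replicate 1 and 2272 without replicate 2. Of the 9 genes, 5 were called lower with library totals (Neil3, Ogg1, Mutyh, Apex1 and Xrcc1), 6 with limma on TPM (these and Parp1) and 2 with the study's test (Neil3 and Ogg1). Parp1 (0.02) reversed to -0.25, -0.45 (adjusted p = 0.0445) and -0.44 in those 3, to -0.045 with only genes averaging 5 CPM or more, to -0.024 with the 2 groups alone and to -0.029 with the replicate block. Leaving out 1 library gave Parp1 values of -0.040 to 0.070, reversed without vehicle-treated replicates 1, 2 or 3 or Igfbp2-treated replicate 3. In the 3 scalings Nthl1 reversed to -0.073, -0.22 and -0.28 and Ung to -0.15, -0.21 and -0.23, and Neil1 reversed to -0.11 and -0.14 on TPM. The median of all genes was at -0.23, -0.30 and -0.43 in these scalings, and relative to it Nthl1 stayed at 0.16, 0.07 and 0.15, Ung at 0.08, 0.08 and 0.20 and Neil1 on TPM at 0.19 and 0.30. The replicate block, whose pairs the labels do not give, called 5423 genes and 1 of the 9 lower, and changed no call of the 9.

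Against WT in Igfbp2-treated libraries, 3 genes were higher with only genes averaging 5 CPM or more. There Mutyh and Nthl1 were not tested, and Ogg1 was tested but lost its call (0.30, edgeR adjusted p = 0.0831). With the study's test, which called 5592 genes, 1 was higher, Ung. With limma and the study's test, Ogg1 reversed to -0.088 and -0.096, Apex1 to -0.30 and -0.30, and Xrcc1 to -0.18 and -0.15. The medians of all genes were -0.25 and -0.43 there, and relative to them Ogg1 was at 0.17 and 0.33, Apex1 at -0.046 and 0.13 and Xrcc1 at 0.068 and 0.28. Without WT replicate 4, an alternative for the lists chosen after seeing the data, 1 G2/M gene was called lower in place of 0. Neil2, with 1 to 15 counts in a library, did not pass the filter.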
